A study of Mus musculus with 4 samples.

Results

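Immunoglobulin segment genes and 4 genes of plasma cells (Jchain, Mzb1, Tnfrsf17 and Pou2af1) were examined in colon of Esr2-KO and WT mice. The comparison was between 2 libraries of Esr2-/- mice, which lack estrogen receptor β, and 2 of wild type mice. All 4 came from C57BL/6 mice at postnatal day 21, and the labels name no treatment. Each library was made from total RNA of colon after depletion of ribosomal RNA. The design text speaks of triplicates, and 2 libraries per genotype are analysed here. No label ties a library to an animal of its own or tells how the Esr2 allele was made, so that p-values measure the spread between these libraries, which may be technical.

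The members were the rows whose symbols named an immunoglobulin segment or constant gene, together with the 4 plasma cell genes, provided that they held at least 20 counts summed over the 4 libraries. Of 46095 symbols in the deposited table, 400 had such a name and 59 reached the minimum. They were 53 kappa variable segments, the heavy chain constant gene Igha, the 4 plasma cell genes and Ighmbp2. Ighmbp2 encodes a helicase, was taken in by its symbol alone and enters no sum. At the edge of the rule, Igkv9-123 and Igkv4-79 were just inside with 21 and 23 counts, and Igkv4-77 and Igkv4-62 just outside with 18 and 15. The members were thus chosen by their summed counts, taken over both genotypes.

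Plasma cells are the antibody-secreting end stage of the B lineage, and in gut mucosa most of them make immunoglobulin A. An antibody pairs heavy chains with kappa or lambda light chains. A B cell joins 1 variable segment to a joining segment by DNA recombination, so that the variable segments transcribed in a tissue reflect which B cell clones it holds. In mice kappa light chains outnumber lambda light chains, and gut plasma cells accumulate after birth with exposure to the microbiota.

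The table did not cover the 3 antibody loci evenly. Of 160 kappa variable rows found in GENCODE M21 on GRCm38, the build also called mm10, 75 lay on the plus strand of chromosome 6 and 85 on the minus strand. All 75 plus-strand rows were at 0 in all 4 libraries, whereas 62 minus-strand rows had counts and 53 of them were the members. The kappa constant gene Igkc (chromosome 6, 70726435 to 70726966) is joined to every kappa variable segment in a finished transcript, and it too was listed at 0, as were the 5 kappa joining rows. All 6 of these lie on the plus strand. Among heavy chain rows other than Igha, 206 of 214 were at 0, and the other 8 held 21 counts together. Of 12 lambda rows 11 were at 0, and the remaining one, Iglc1, had 9 counts. The constant gene of immunoglobulin M, Ighm, was among the rows at 0.

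The same table also held a row for each whole locus, named Igh, Igk and Igl. RefSeq places Igk on chromosome 6 from 67555636 to 70726754, Igh on chromosome 12 from 113258768 to 116009954 and Igl on chromosome 16 from 19026858 to 19260844, spans that contain 164, 213 and 11 of the named rows. Igh had 479 and 159 counts in Esr2-KO libraries and 499 and 516 in WT libraries. Igk had 331 and 101 counts in Esr2-KO and 301 and 312 in WT, and Igl 162 and 36 in Esr2-KO and 102 and 69 in WT. Igha was the single heavy chain member and reached past the end of the Igh row, with 1634 of its 2668 exon bases (61.2%) outside it. Whether the locus rows bear on the zeros was not tested. The values that follow therefore describe kappa segments of the minus strand, and they do not measure the use of heavy, lambda or plus-strand kappa segments.

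**Figure D1:**
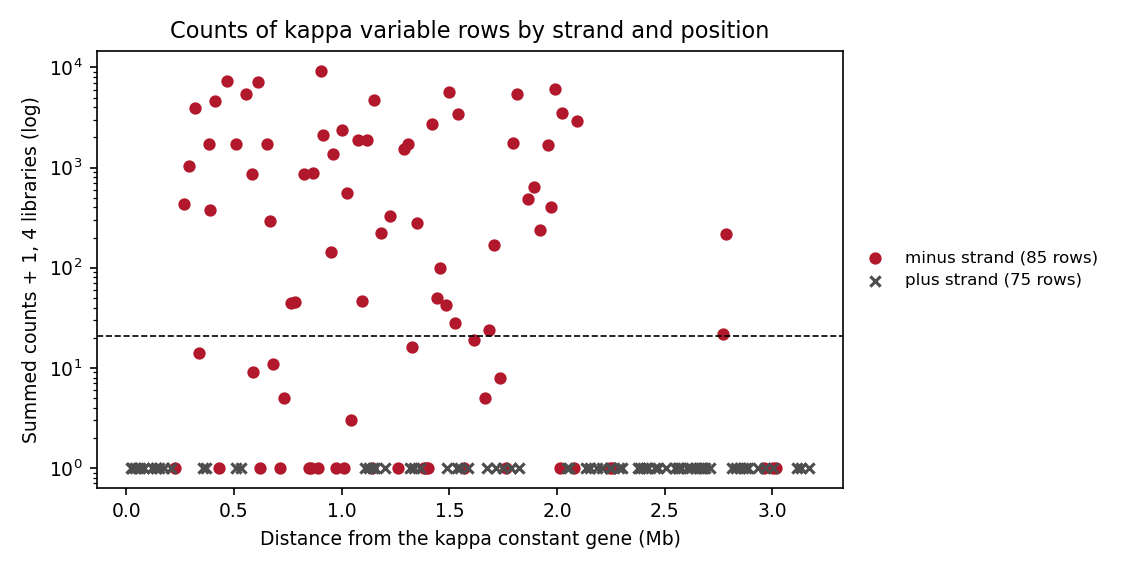
Counts summed over the 4 libraries plus 1 (vertical, log scale) of 160 kappa variable rows against their distance from the kappa constant gene in megabases, by strand of the annotation, with a dashed line at the minimum of 20 counts. Crosses, the 75 plus-strand rows, all sit at 0 counts, and the 53 members are minus-strand rows.

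Library totals were 32986548 and 30826790 counts in Esr2-KO 1 and 2 and 33709643 and 33329655 in WT 1 and 2. Levels are given as CPM, counts scaled to library totals corrected with TMM, and 3 counts corresponded to 0.0826 to 0.114 CPM. Esr2, the targeted gene, had 6 and 16 counts in Esr2-KO and 21 and 13 in WT, with an edgeR adjusted p of 0.854, so that the genotype labels could not be checked from it. Esr2-KO 2 stood apart through genes of pancreatic digestive enzymes, which took 21.1% of its counts, against 0.196% in Esr2-KO 1 and 0.0502% and 0.0549% in WT 1 and WT 2. Whether this bears on the lower immunoglobulin values of that library, described next, was not tested. Values without it are given for the sums and plasma cell genes, and for named genes where they change a call or a sign. For list medians they are given where the sign changes.

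Among the plasma cell genes, Esr2-KO colon did not differ from WT beyond the spread between libraries. Jchain encodes the joining chain that links secreted immunoglobulin A and M into polymers. It stood at 769 and 181 CPM in Esr2-KO and at 1248 and 989 CPM in WT, and both Esr2-KO libraries were below both WT libraries. Set against WT, Jchain had a log2 fold change of -1.24 ± 0.59 (SE, n = 2 each) and an adjusted p of 0.298 (quasi-likelihood test of edgeR, Benjamini-Hochberg adjustment over all 17169 genes tested). Without Esr2-KO 2 the log2 fold change of Jchain was -0.53, and without Esr2-KO 1 it was -2.63 with an edgeR adjusted p of 3.84e-04, in a range over 14 alternatives from 3.84e-04 to 0.626.

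Mzb1, a chaperone of the endoplasmic reticulum that assists antibody assembly, had 17.0 and 6.26 CPM in Esr2-KO and 20.1 and 17.3 CPM in WT. Esr2-KO 2 was far below the other libraries, and Esr2-KO 1 lay just under WT 2. The log2 fold change was -0.68 ± 0.42 (edgeR adjusted p = 0.406), and -0.14 without Esr2-KO 2. Without Esr2-KO 1 it was -1.58 with an edgeR adjusted p of 0.00226, in a range over 14 alternatives from 0.00226 to 0.837.

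Pou2af1 encodes a B cell coactivator that works with octamer-binding factors at immunoglobulin promoters. It was at 13.8 and 5.05 CPM in Esr2-KO and 13.2 and 12.7 CPM in WT, so that the groups overlapped (log2 fold change -0.46 ± 0.42, edgeR adjusted p = 0.586). Tnfrsf17, also called BCMA, is a receptor for the plasma cell survival factors APRIL and BAFF. It was at 3.13 and 1.06 CPM in Esr2-KO and 2.84 and 3.19 CPM in WT, again with overlap (-0.51 ± 0.51, edgeR adjusted p = 0.618). For both genes the sign turned without Esr2-KO 2, to 0.09 for Pou2af1 and 0.06 for Tnfrsf17. Pou2af1 passed without Esr2-KO 1 (log2 fold change -1.36, edgeR adjusted p = 0.00791, in a range over 14 alternatives from 0.00791 to 0.906).

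Igha, on chromosome 12 from 113254830 to 113260236, encodes the constant region of immunoglobulin A. It held 102 and 19 counts in Esr2-KO and 91 and 97 in WT, that is 2.98 and 0.721 CPM against 2.51 and 2.79 CPM. Esr2-KO 1 was the highest library and Esr2-KO 2 the lowest, and the log2 fold change of -0.50 ± 0.61 (edgeR adjusted p = 0.693) turned to 0.18 without Esr2-KO 2. With all libraries, none of the 4 plasma cell genes passed the threshold in edgeR with its low-count filter, in DESeq2 or in limma-voom. In that edgeR fit none had an unadjusted p under 0.05. Without a low-count filter edgeR called Jchain lower (-1.23, edgeR adjusted p = 0.0278), among 1916 genes called of 25515.

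**Figure D2:**
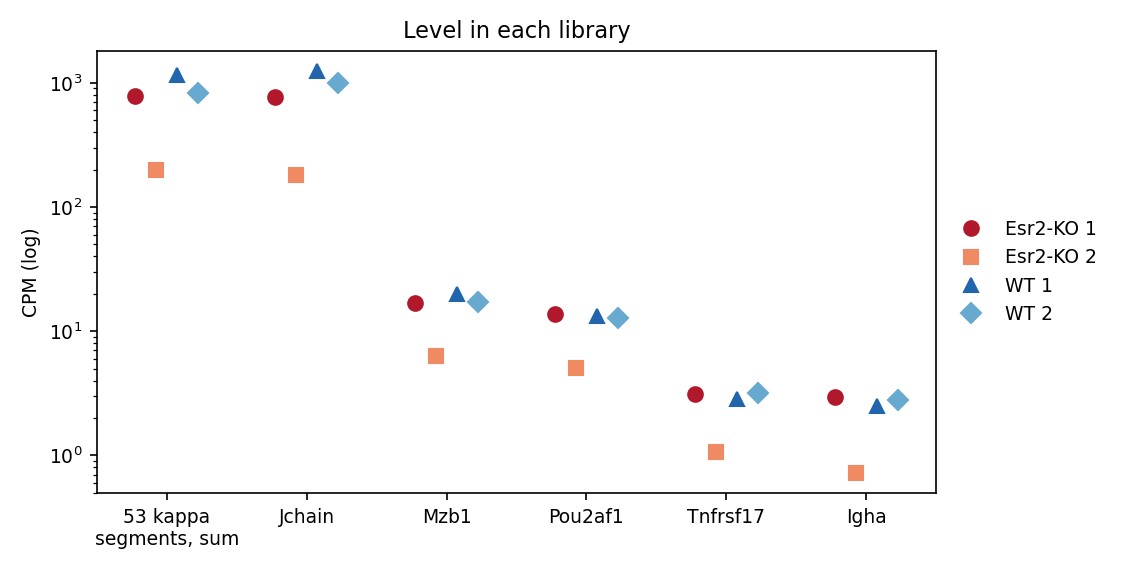
CPM on a log scale in each library for the sum of 53 kappa variable segments, the 4 plasma cell genes and Igha, with Esr2-KO libraries left of WT libraries. In each of these 6 measures Esr2-KO 2 is the lowest point, and for Pou2af1 and Igha Esr2-KO 1 lies above both WT libraries.

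The 53 kappa segments together held 26934 and 5220 counts in Esr2-KO and 41797 and 28564 counts in WT. This was 787 and 198 CPM in Esr2-KO, a mean of 493 ± 417, and 1151 and 821 CPM in WT, a mean of 986 ± 233 (SD, n = 2 each). Esr2-KO 1 was close to WT 2, and Esr2-KO 2 stood at 0.201 of the WT mean. The log2 ratio of the group means was -1.0, and -0.32 without Esr2-KO 2 or -2.31 without Esr2-KO 1. An exact permutation test of 2 against 2 libraries cannot go below a two-sided p of 0.333.

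The kappa sum varied less against Jchain than in CPM. Per 1000 Jchain counts there were 1023 and 1097 kappa variable counts in Esr2-KO and 922 and 830 in WT. The other plasma cell genes were less constant against Jchain. Mzb1 counts per 1000 Jchain counts were 22.0 and 34.7 in Esr2-KO and 16.1 and 17.5 in WT, and Pou2af1 counts were 17.9 and 27.9 in Esr2-KO and 10.6 and 12.9 in WT. Tnfrsf17 had 4.07 and 5.88 counts per 1000 Jchain counts in Esr2-KO and 2.27 and 3.23 in WT, and Igha 3.88 and 3.99 in Esr2-KO and 2.01 and 2.82 in WT. For the kappa sum and each of these 4 genes both Esr2-KO libraries were above both WT libraries in this ratio. These ratios all share the Jchain counts as denominator, and Jchain was itself lower in both Esr2-KO libraries. Any gene lowered less than Jchain comes out higher, so that these separations partly restate the Jchain values. The share of all genes that separate in this ratio was not counted. Set against Mzb1 the kappa sum stood the other way, with 46.4 and 31.6 kappa counts per Mzb1 count in Esr2-KO and 57.3 and 47.4 in WT. In bulk tissue, fewer cells of a type and less RNA per cell cannot be told apart.

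Single kappa segments were tested in the same model as all genes. Over all 17169 genes the edgeR test called 462 at an adjusted p under 0.05, 2.69% in either direction, with 1.39% lower and 1.30% higher in Esr2-KO. With library totals in place of TMM, which shifted the median log2 fold change of all tested genes from 0.00 to -0.17, the split was 208 higher and 487 lower, against 223 and 239 with TMM. Of the 59 members 53 reached the test, 47 of them kappa segments, and 4 kappa segments fell and none rose. At an unadjusted p under 0.05 the edgeR test had 15 kappa segments on the lower side, beside 10.9% of all genes, and 1 on the higher side, beside 9.69%. DESeq2 called 6 members lower, beside 5.12% of all genes, and 1 higher, beside 4.71%, and limma-voom called 4 lower, beside 1.76%, and 0 higher, beside 1.77%. Among the 47 kappa segments tested, both Esr2-KO libraries were below both WT libraries for 16 and above them for 1, Igkv1-88. Of all tested genes 27.7% were below and 27.0% above. Over all 53 kappa members it was 19 (35.8%) below and 2 above, Igkv1-88 and Igkv9-123. The groups overlapped for the remaining 32. The 53 include low segments outside the test that became members through counts in 1 genotype or 1 library. The separation of such segments is partly set by that selection. The share of 35.8% is therefore not comparable with those of tested genes.

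The 4 segments that fell belong to 3 kappa families, and all lie on chromosome 6. Igkv4-57 (69575975 to 69576500) had 39 and 167 counts in Esr2-KO and 3164 and 1394 in WT. The groups were far apart, at 1.14 and 6.33 CPM in Esr2-KO and 87.1 and 40.1 CPM in WT, and the log2 fold change came to -4.12 ± 0.75 (edgeR adjusted p = 0.0450). Igkv6-23 (70260409 to 70260955) had 423 and 130 counts in Esr2-KO and 4440 and 2285 in WT, and its log2 fold change was -3.43 ± 0.47 (edgeR adjusted p = 0.0257). It stood at 12.4 and 4.93 CPM in Esr2-KO and 122 and 65.7 CPM in WT, and ranked 3 among kappa segments by counts in WT 1 and 2 in WT 2.

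Igkv5-48 (69726573 to 69727138) was at 5.94 and 5.08 CPM in Esr2-KO and 35.7 and 21.6 CPM in WT, a log2 difference of -2.37 ± 0.27 (edgeR adjusted p = 0.0197). Its Esr2-KO libraries were close to each other, unlike those of most kappa segments. Igkv6-32 (70074024 to 70074603) was at 3.42 and 6.60 CPM in Esr2-KO and 23.4 and 16.5 CPM in WT, a log2 difference of -2.00 ± 0.35 (edgeR adjusted p = 0.0403). In both this segment and Igkv4-57 the Esr2-KO 2 value was above that of Esr2-KO 1, although Esr2-KO 2 held the least kappa RNA in all.

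Set against the kappa counts of their own library, 3 of the 4 segments were lower in both Esr2-KO libraries than in both WT libraries. The 4 were picked because these same counts called them lower, so that low shares are partly set by that choice. The shares are a description and no further support. How many of all kappa segments separate in this way was not counted. Igkv6-23 made up 1.57% and 2.49% of kappa variable counts in Esr2-KO and 10.6% and 8.00% in WT. Igkv4-57 made up 0.145% and 3.20% in Esr2-KO and 7.57% and 4.88% in WT. Igkv5-48 came to 0.754% and 2.57% in Esr2-KO and 3.10% and 2.63% in WT, where Esr2-KO 2 nearly reached WT 2 and its 95% Wilson interval (2.17 to 3.03) included that value. Igkv6-32 overlapped in this measure, with 0.434% and 3.33% in Esr2-KO and 2.04% and 2.01% in WT. These intervals cover counting error only.

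Of the 4 calls 3 were lost when a WT library was left out. Igkv5-48 passed in each of 14 alternatives, with edgeR, DESeq2 or limma adjusted p values up to 0.0305. Without WT 1 the log2 fold changes stayed at -3.44 for Igkv4-57, -2.92 for Igkv6-23 and -1.72 for Igkv6-32. The edgeR adjusted p was then 0.129 for Igkv4-57, 0.050 (above the threshold before rounding) for Igkv6-23 and 0.153 for Igkv6-32, the highest of their 14 alternatives, and without WT 2 it was 0.0565 for Igkv6-32. The lowest over those alternatives were 8.40e-08, 2.42e-09 and 3.67e-07. All 4 passed without Esr2-KO 2, with log2 fold changes of -5.79 for Igkv4-57, -2.26 for Igkv5-48, -2.92 for Igkv6-23 and -2.54 for Igkv6-32. There the members called were 4 lower, beside 1.50% of all genes, and 3 higher (Igkv1-88, Igkv4-91 and Igkv8-27), beside 1.27% of all genes. Without Esr2-KO 1, 28 members were lower, beside 5.68% of all genes, and 0 higher, beside 4.35%. Without WT 1, 7 members were lower, beside 0.558%, and 0 higher, beside 0.363%. Without WT 2, 3 members were lower, beside 0.632%, and 0 higher, beside 1.22%.

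Kappa segments are close copies of each other, and counting could have split or moved reads between them. Over the 53 members, identity between a segment's transcript in GENCODE and its nearest kappa relative ran from 78.5% to 98.5%, with a median of 95.3%, and 29 members had a relative at 95% or above. The last 120 aligned bases of each segment that fell and of its nearest relative are shown. They show how far reads from that stretch can be told apart. They come from GENCODE M21 transcripts on GRCm38, at chr6:69575975-69576500 for Igkv4-57, chr6:69607275-69607828 for Igkv4-55, chr6:70260409-70260955 for Igkv6-23, chr6:70457501-70458036 for Igkv6-13, chr6:69726573-69727138 for Igkv5-48, chr6:69775750-69776344 for Igkv5-45 and chr6:70074024-70074603 for Igkv6-32, all on the minus strand. Each is written 5′ to 3′ on the strand of the gene, and capitals mark bases of the relative that differ from the segment above it.
Igkv4-57: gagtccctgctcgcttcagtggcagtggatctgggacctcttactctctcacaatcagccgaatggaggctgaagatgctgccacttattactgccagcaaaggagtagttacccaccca
Igkv4-55: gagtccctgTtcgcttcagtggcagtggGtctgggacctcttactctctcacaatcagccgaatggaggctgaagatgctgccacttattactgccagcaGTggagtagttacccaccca
Igkv6-23: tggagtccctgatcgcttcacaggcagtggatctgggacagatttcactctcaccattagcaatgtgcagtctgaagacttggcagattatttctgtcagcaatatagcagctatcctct
Igkv6-13: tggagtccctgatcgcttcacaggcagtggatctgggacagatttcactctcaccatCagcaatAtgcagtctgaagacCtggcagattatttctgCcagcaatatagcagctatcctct
Igkv5-48: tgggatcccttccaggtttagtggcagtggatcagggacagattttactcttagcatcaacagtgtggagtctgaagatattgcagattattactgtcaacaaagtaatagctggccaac
Igkv5-45: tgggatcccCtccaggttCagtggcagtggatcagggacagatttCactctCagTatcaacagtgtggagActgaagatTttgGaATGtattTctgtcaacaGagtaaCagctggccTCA
Igkv6-32: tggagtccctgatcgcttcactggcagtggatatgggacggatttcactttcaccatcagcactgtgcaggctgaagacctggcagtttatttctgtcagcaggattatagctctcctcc
Igkv6-13: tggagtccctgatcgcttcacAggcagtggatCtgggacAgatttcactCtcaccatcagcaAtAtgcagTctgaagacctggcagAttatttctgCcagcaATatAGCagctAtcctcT

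Igkv4-57 and Igkv4-55 differed at 4 of these 120 bases and Igkv6-23 and Igkv6-13 also at 4, whereas Igkv5-48 and Igkv5-45 differed at 17 and Igkv6-32 and Igkv6-13 at 16. Igkv4-55 was at 8.39 and 2.28 CPM in Esr2-KO and 27.5 and 15.1 CPM in WT, with no overlap (log2 fold change -1.98 ± 0.58, edgeR adjusted p = 0.123). Igkv6-13 was at 1.70 and 2.35 CPM in Esr2-KO and 0.964 and 7.90 CPM in WT (-1.13 ± 0.84, edgeR adjusted p = 0.493), and Igkv5-45 at 1.40 and 0.0379 CPM in Esr2-KO and 1.43 and 1.18 CPM in WT (-0.81 ± 1.04, edgeR adjusted p = 0.703). The sign turned to 0.11 for Igkv5-45 without Esr2-KO 2 and to 1.08 for Igkv6-13 without WT 2, while Igkv4-55 (-3.22) and Igkv5-45 (-4.97) passed without Esr2-KO 1. Over the whole aligned length, identity was 94.9% for Igkv4-57 and Igkv4-55 and 96.2% for Igkv6-23 and Igkv6-13. It was 85.0% for Igkv5-48 and Igkv5-45 and 84.7% for Igkv6-32 and Igkv6-13. The values of Igkv4-57 and Igkv6-23 are thus uncertain with regard to their relatives. So are those of all members with a relative at 95% identity or above.

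**Figure D3:**
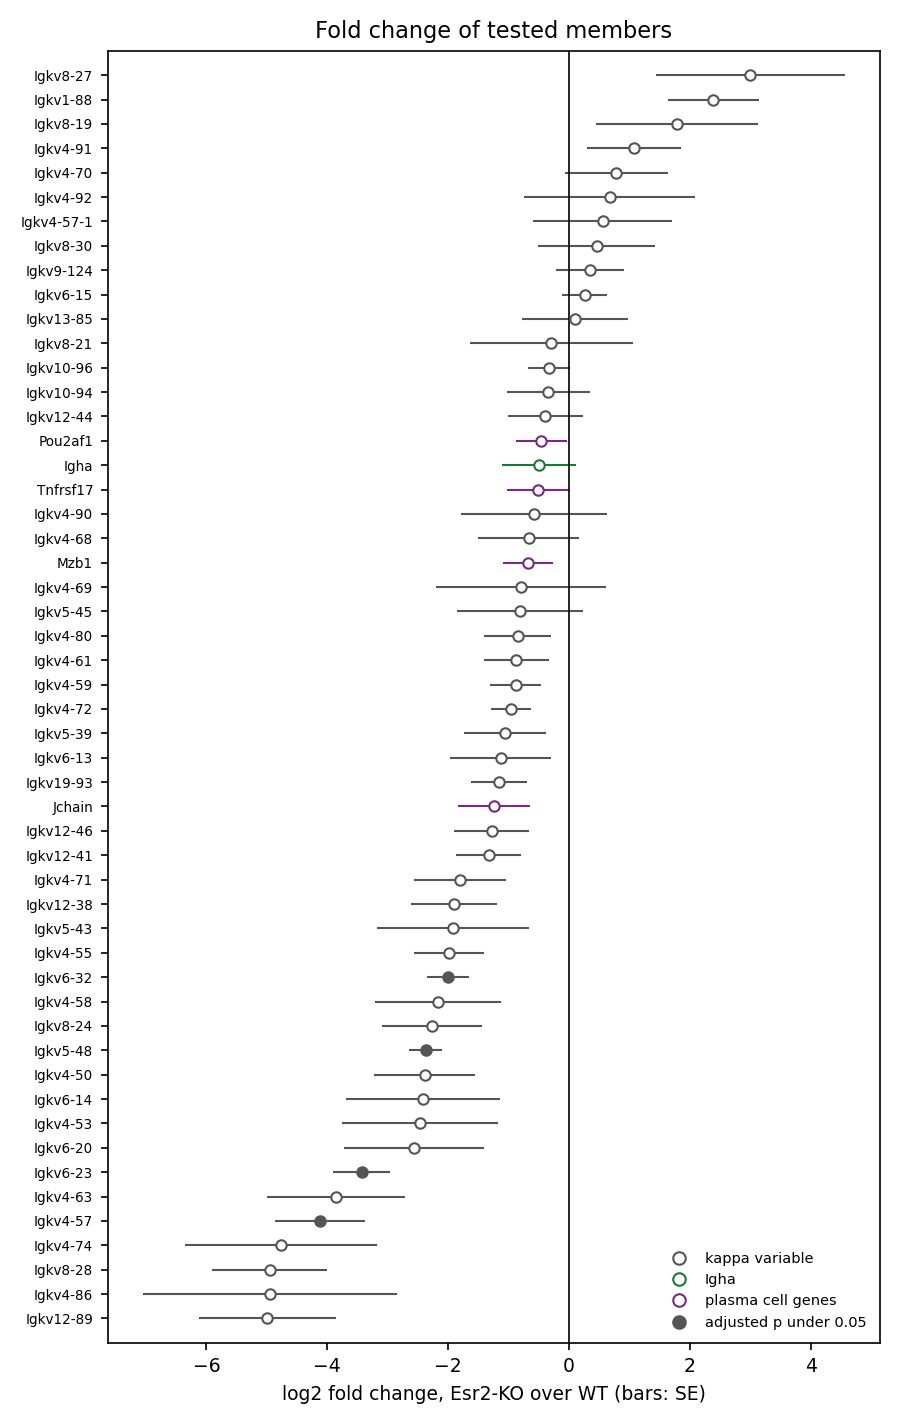
Log2 fold change of Esr2-KO over WT with its SE for the 47 tested kappa segments, Igha and the 4 plasma cell genes, ordered by value. Filled points, Igkv4-57, Igkv5-48, Igkv6-23 and Igkv6-32, are the 4 past an edgeR adjusted p of 0.05, and several segments with larger folds have wide error bars.

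The 4 largest absolute fold changes among tested kappa segments did not pass the threshold in edgeR with all libraries. Igkv12-89 stood at 0.439 and 0.0759 CPM in Esr2-KO and 2.04 and 15.6 CPM in WT (-4.99 ± 1.13, edgeR adjusted p = 0.0718). Igkv8-28 stood at 0.409 and 0.341 CPM in Esr2-KO and 3.11 and 20.6 CPM in WT (-4.95 ± 0.95, edgeR adjusted p = 0.0515). In both, WT 2 carried most of the WT signal. Igkv4-86 had 154 and 0 counts in Esr2-KO and 5254 and 24 in WT (-4.95 ± 2.10, edgeR adjusted p = 0.248), and its sign turned to 1.72 without WT 1. Igkv4-74 had 109 and 0 counts in Esr2-KO and 3169 and 158 in WT (-4.77 ± 1.59, edgeR adjusted p = 0.163). For these last 2 segments nearly the whole difference came from WT 1. Igkv12-89 passed without Esr2-KO 1 (-6.78) or WT 1 (-5.82), Igkv8-28 likewise (-5.09 and -5.75), and Igkv4-74 without Esr2-KO 1, where the one Esr2-KO library left held 0 counts and no fold can be given. Igkv8-28 also passed in DESeq2 (adjusted p = 0.00131). In edgeR it passed with library totals (adjusted p = 0.00493) and with the pancreatic genes removed before the fit (adjusted p = 0.0428). Igkv12-89 passed in DESeq2 (adjusted p = 0.0192) and in edgeR with library totals (adjusted p = 0.0126). Over 14 alternatives the adjusted p ran from 8.47e-07 to 0.263 for Igkv8-28 and from 7.31e-06 to 0.304 for Igkv12-89.

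The most abundant segments showed the same pattern of single libraries. Igkv5-43, with the highest mean over the 4 libraries, was at 50.3 and 3.91 CPM in Esr2-KO and 187 and 18.9 CPM in WT, and its log2 fold change of -1.92 ± 1.25 turned to 0.53 without WT 1 and was -4.72, past the threshold, without Esr2-KO 1. Igkv8-27 had 140 and 0.948 CPM in Esr2-KO and 11.5 and 6.21 CPM in WT, where Esr2-KO 1 was the highest library of the 4 and Esr2-KO 2 the lowest. Its log2 fold change of 3.0 ± 1.56 (edgeR adjusted p = 0.331) turned to -3.21 without Esr2-KO 1 and was 3.99 without Esr2-KO 2, with edgeR adjusted p values of 0.00226 and 5.15e-04 in a range over 14 alternatives from 5.15e-04 to 0.858. Igkv8-30 had 111 and 9.79 CPM in Esr2-KO and 66.3 and 21.7 CPM in WT (0.46 ± 0.97, edgeR adjusted p = 0.829), and turned to -2.16, past the threshold, without Esr2-KO 1 and to -0.12 without WT 2, and was 1.34 without Esr2-KO 2. Igkv19-93 was at 22.5 and 33.4 CPM in Esr2-KO and 32.3 and 92.6 CPM in WT (-1.16 ± 0.46, edgeR adjusted p = 0.219). Igkv4-72 was the most even of these segments, with 38.6 and 18.0 CPM in Esr2-KO and 49.0 and 61.6 CPM in WT (-0.96 ± 0.33, edgeR adjusted p = 0.174). Igkv4-72 passed without Esr2-KO 1 (-1.62) and stood at -0.51 without Esr2-KO 2, and Igkv19-93 without WT 1 (-1.73).

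Libraries of the same genotype differed widely in single kappa segments. Over the 47 tested segments the median absolute log2 difference was 1.87 between the 2 Esr2-KO libraries and 1.33 between the 2 WT libraries, where over all genes tested it was 0.231 and 0.201. A difference of at least 4-fold was seen for 23 of the 47 segments (48.9%) between Esr2-KO libraries and for 16 (34%) between WT libraries, against 2.94% and 1.86% of all genes. For 36 of the 53 segments (67.9%) 1 library held at least 50% of the summed CPM. That library was Esr2-KO 1 for 8 segments, Esr2-KO 2 for 1, WT 1 for 14 and WT 2 for 13. Among all genes tested the share was 3.45%. The 2 shares are not like for like, since the 53 include segments that did not reach the test. Those segments had most of their counts in 1 library or 1 genotype, and the test filter removes many such genes. Since 47 of the 53 segments did reach the test, most of the 36 segments were tested ones. The share over tested segments alone was not computed.

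Some low segments were found almost wholly in 1 library or in the libraries of 1 genotype. Igkv7-33 had 0 and 1 counts in Esr2-KO and 0 and 291 in WT. Igkv5-37 had 0 counts in both Esr2-KO libraries and 43 and 0 in WT. Igkv4-79 had 0 counts in both Esr2-KO libraries and 7 and 16 in WT. Igkv9-123 went the other way, with 4 and 16 counts in Esr2-KO and 0 and 1 in WT. These 4, with Igkv4-54 and Igkv4-73, were the members that did not reach the test, which asked for about 10 counts in at least 2 libraries. Igkv4-73, the one pseudogene among the members, had 0 and 1 counts in Esr2-KO and 10 and 16 in WT. Such members reached 20 summed counts through 1 group or 1 library, so that no fold is read from them.

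The leading segments differed between libraries in part. In Esr2-KO 1 Igkv8-27 took 17.8% of kappa variable counts (95% Wilson interval 17.3 to 18.3), followed by Igkv8-30 with 14.1%. In Esr2-KO 2 Igkv19-93 took 16.9% (15.9 to 17.9) and Igkv6-15 13.3%. In WT 1 Igkv5-43 took 16.3% (15.9 to 16.6) and Igkv4-86 12.6%, and in WT 2 Igkv19-93 took 11.3% (10.9 to 11.7) and Igkv6-23 8.00%. The 5 leading segments held 50.6% and 50.3% of kappa counts in Esr2-KO and 54.6% and 39.7% in WT. The inverse Simpson number, the count of equally used segments that would give the same concentration, was 12.9 and 13.7 in Esr2-KO and 13.0 and 20.5 in WT, so that WT 2 was the most even library.

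**Figure D4:**
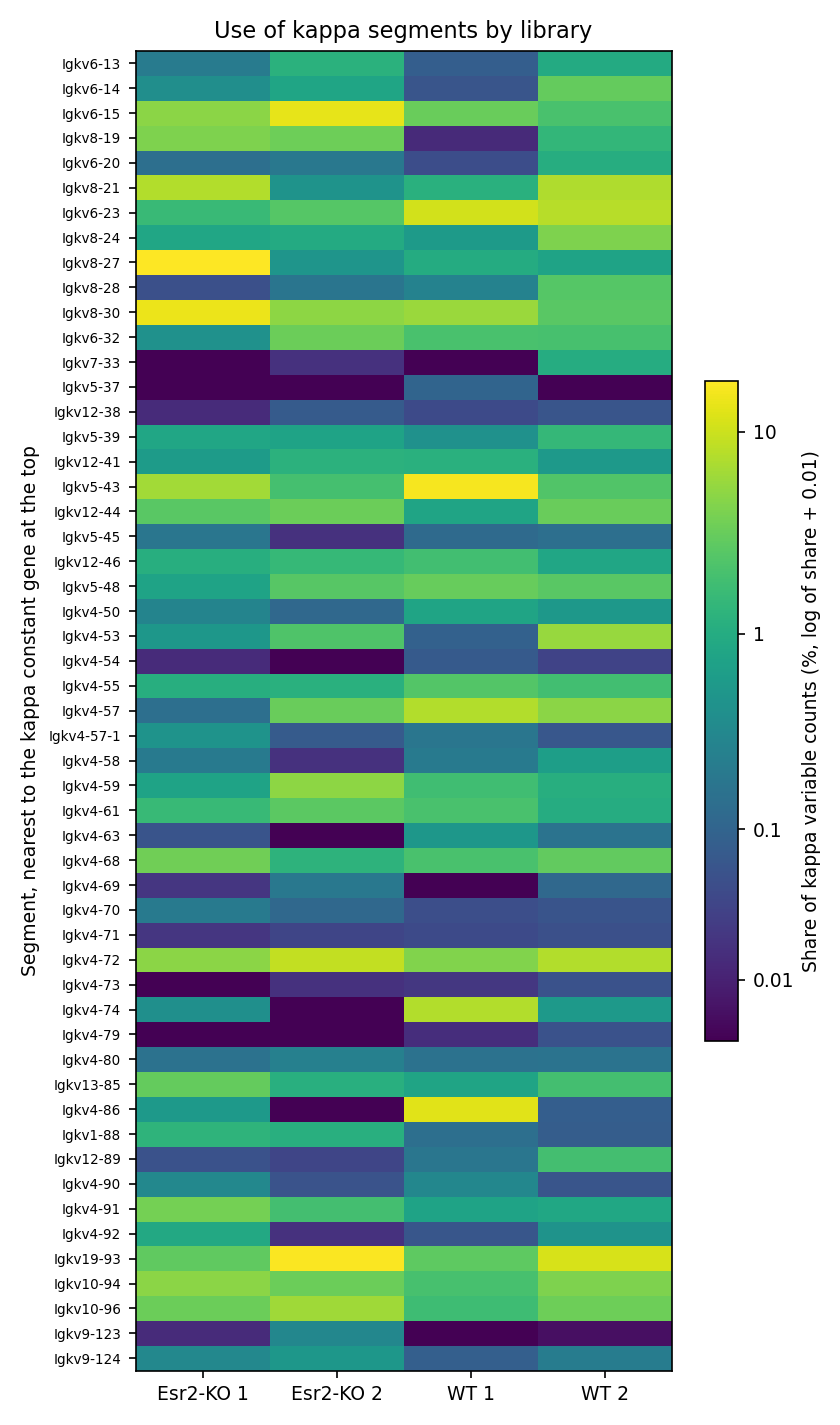
Share of kappa variable counts held by each of the 53 segments in each library (colour, log scale in percent), with segments ordered by distance from the kappa constant gene and Esr2-KO libraries left of WT libraries. Bright cells differ from library to library within a genotype, such as Igkv8-27 with 17.8% in Esr2-KO 1 and Igkv4-86 with 12.6% in WT 1.

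Summed by family, which keeps together segments that could trade reads, the differences between libraries remained. The 6 members of family Igkv8 made up 44.4% of kappa counts in Esr2-KO 1 (95% Wilson interval 43.9 to 45.0) and 10.4% in Esr2-KO 2 (9.64 to 11.3), against 8.79% and 18.9% in WT. The 23 members of family Igkv4 made up 19.8% and 27.5% in Esr2-KO and 43.5% and 28.9% in WT, the lowest WT share just above the highest Esr2-KO share. Family Igkv6 was at 7.65% and 21.3% in Esr2-KO and 16.1% and 17.1% in WT, and Igkv5 at 8.16% and 5.33% in Esr2-KO and 20% and 6.54% in WT. Igkv1, here the single segment Igkv1-88, had a higher share in both Esr2-KO libraries, at 1.28% and 1.13% in Esr2-KO and 0.146% and 0.0805% in WT. In CPM Igkv1-88 stood at 10.1 and 2.24 in Esr2-KO and 1.68 and 0.661 in WT (log2 fold change 2.39 ± 0.76, edgeR adjusted p = 0.146), and it was named after its values were seen, as it passed without Esr2-KO 2. Families Igkv10 and Igkv9 also had higher shares in both Esr2-KO libraries, Igkv10 at 8.12% and 9.35% in Esr2-KO and 3.73% and 7.51% in WT. Igkv9 was at 0.338% and 0.824% in Esr2-KO and 0.0861% and 0.228% in WT. One of its 2 segments became a member through its Esr2-KO counts, so that this share is partly set by that selection. Family Igkv4 separated the other way. An exact permutation test of 2 against 2 libraries cannot go below a two-sided p of 0.333, so that these separations are a description only.

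**Figure D5:**
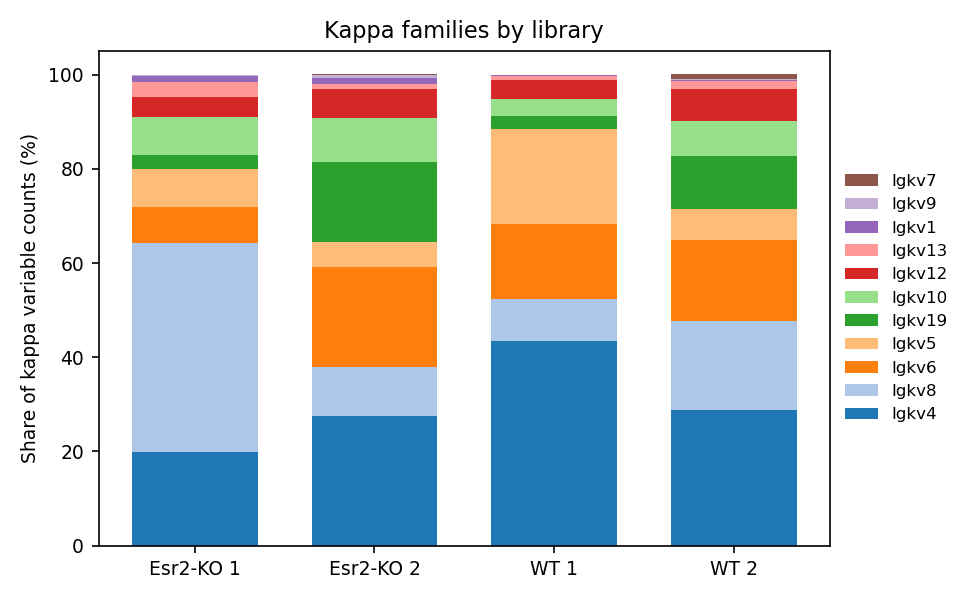
Share of kappa variable counts by segment family in each library, in percent, stacked to 100, with Esr2-KO libraries left of WT libraries. Family Igkv8 takes 44.4% of Esr2-KO 1 and 10.4% of Esr2-KO 2, and family Igkv4 takes 43.5% of WT 1 and 28.9% of WT 2.

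In segment use, the likeness of libraries of one genotype lay within the range seen between genotypes. The share of kappa counts that a pair of libraries had in common, taking the smaller share of each segment, was 50.4% between the Esr2-KO libraries and 51.1% between the WT libraries. Between genotypes it was 44.8% and 52.5% for Esr2-KO 1 with WT 1 and WT 2, and 45.8% and 63.1% for Esr2-KO 2 with WT 1 and WT 2. Spearman correlations over the 53 segments were 0.70 for the Esr2-KO pair, 0.58 for the WT pair and 0.52 to 0.73 between genotypes, while over all genes tested they were 0.980, 0.987 and 0.953 to 0.979. These correlations are across segments that share a locus and a library, not across independent samples. Position gave little order, with Spearman correlations of share with distance from Igkc of -0.08 and -0.14 in Esr2-KO and -0.03 and -0.28 in WT over 53 segments.

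Other genes of the B lineage were read from lists. At an unadjusted edgeR p under 0.05, 9.69% of all genes were higher and 10.9% lower. At an adjusted p under 0.05 edgeR called 1.30% higher and 1.39% lower, DESeq2 4.71% and 5.12%, and limma-voom 1.77% and 1.76%. The counts of each list are to be read beside these shares. Of 24 plasma cell factors none passed in edgeR in either direction. Their median log2 fold change was 0.03 beside 0.00 for all genes tested, and -0.10 without Esr2-KO 2. At an unadjusted edgeR p under 0.05, 3 were higher and 6 lower. DESeq2 called 0 higher and 3 lower and limma-voom called none. Prdm1, the transcription factor that drives plasma cell fate, was at 3.22 and 3.91 CPM in Esr2-KO and 11.3 and 6.38 CPM in WT (-1.32 ± 0.33, edgeR adjusted p = 0.0926). Hsp90b1, a chaperone of secreting cells in general, was at 511 and 449 CPM in Esr2-KO and 903 and 647 CPM in WT (-0.69 ± 0.22, edgeR adjusted p = 0.143). Both genes had both Esr2-KO libraries below both WT libraries and passed in DESeq2, and epithelial cells also express many of these factors.

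Among markers of B cells none of 24 passed in edgeR. The 24 markers summed to 283 and 176 CPM in Esr2-KO and 119 and 170 CPM in WT. Blnk alone held 97.6 and 78.9 CPM of these sums in Esr2-KO and 74.8 and 72.2 in WT. The median log2 fold change was 1.31, or 1.67 without Esr2-KO 2. Of the 24 markers 23 were positive, where 50.3% of all genes tested were negative. WT 1 was the lowest library for each marker other than Cd72, Blnk, Btk and Cd40. Pax5, for example, had 3 counts in WT 1 and 58 in WT 2. On the higher side 6 markers had an unadjusted edgeR p under 0.05, beside 9.69% of all genes, and none on the lower side, beside 10.9%. DESeq2 called 1 higher, beside 4.71% of all genes, and limma-voom called none. Cxcr5, the receptor that guides B cells into follicles, was at 4.97 and 2.73 CPM in Esr2-KO and 0.661 and 1.87 CPM in WT (1.61 ± 0.56, edgeR adjusted p = 0.177). The log2 fold change of Cxcr5 was 1.05 without WT 1 and 1.98 without Esr2-KO 2. Esr2-KO 1 had the highest B cell sum, and the sums of Esr2-KO 2 and WT 2 were close.

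Of 7 tested genes of germinal centres and class switching none passed in edgeR (median 0.08, or -0.04 over the 8 tested without Esr2-KO 2). At an unadjusted edgeR p under 0.05, 1 was higher and 1 lower, while DESeq2 called 1 lower and limma-voom none. Mef2b and Rag1 were listed at 0. Apobec1, an RNA-editing relative of the switching enzyme, was at -0.49 ± 0.13 (edgeR adjusted p = 0.0965), and Msh6, a mismatch repair gene, at 0.38 ± 0.15 (edgeR adjusted p = 0.221). Of 20 tested genes of IgA induction, homing and transport none passed in edgeR (median -0.03, or 0.11 without Esr2-KO 2). At an unadjusted edgeR p under 0.05, 3 were higher and 6 lower. DESeq2 called 1 higher and 3 lower, and limma-voom none. Fcamr, a receptor for immunoglobulin A and M, was at 5.88 and 6.52 CPM in Esr2-KO and 1.73 and 3.02 CPM in WT (1.38 ± 0.34, edgeR adjusted p = 0.0879), and Tgfbr1, a receptor chain of the cytokine that induces switching to immunoglobulin A, at 32.5 and 30.3 CPM in Esr2-KO and 44.6 and 41.3 CPM in WT (-0.45 ± 0.13, edgeR adjusted p = 0.114). Lta and Ltb were listed at 0. Without Esr2-KO 1 Apobec1 (-0.60) and Fcamr (1.46) passed.

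Among markers of other cells, those of T cells summed to 23.6 and 14.1 CPM in Esr2-KO and 26.5 and 35.6 CPM in WT, with none of 11 past the threshold in edgeR, DESeq2 or limma-voom, 1 lower at an unadjusted p under 0.05 and a median of -0.79, or -0.56 without Esr2-KO 2. Cd8a was at -1.15 ± 0.47 (edgeR adjusted p = 0.231) and the kinase gene Lck at -1.07 ± 0.46 (edgeR adjusted p = 0.257), which passed without Esr2-KO 1 (-1.86). The T cell receptor constant genes Trac, Trbc1 and Trbc2 were listed at 0. Of 14 epithelial markers 2 fell, Cdx2 (-2.03 ± 0.34, edgeR adjusted p = 0.0373) and Car1 (-2.11 ± 0.39, edgeR adjusted p = 0.0469), and none rose. Of all genes 1.39% fell and 1.30% rose. The median of the markers was 0.03. At an unadjusted edgeR p under 0.05, 2 were higher, beside 9.69% of all genes, and 4 lower, beside 10.9%. DESeq2 called 3 higher and 3 lower, beside 4.71% and 5.12%, and limma-voom 1 higher and 2 lower, beside 1.77% and 1.76%. The epithelial markers summed to 13670 and 12679 CPM in Esr2-KO and 15506 and 17858 CPM in WT. Cdx2 did not pass without WT 1 (-1.89) or WT 2 (-2.15), nor Car1 without Esr2-KO 2 (-2.09). All 22 tested pancreatic genes had positive fold changes (median 11.49, or 3.38 without Esr2-KO 2). In edgeR 1 of them, Spink1, a trypsin inhibitor, rose (1.30 ± 0.16, edgeR adjusted p = 0.0204), though not without WT 1 (1.20). At an unadjusted edgeR p under 0.05, 22 were higher, beside 9.69% of all genes, and 0 lower, beside 10.9%. DESeq2, which tested more of the list, called 24 higher and 0 lower, beside 4.71% and 5.12%. Limma-voom called 2 higher and 0 lower, beside 1.77% and 1.76%. Prss1, Prss2, Try4 and Try10 were listed at 0. The part of these other cell types in the immunoglobulin values was not tested.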

How the data were processed

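The authors deposited raw read counts for each gene symbol, whole numbers with differing library totals, for 2 libraries per genotype. RNA was taken up in Trizol and depleted of ribosomal RNA before a directional NEBNext library kit, per the labels' protocols. Reads were aligned with HISAT2 to mm10, per the submitters' processing notes. The sources used here do not give the counting program, its annotation or its use of strand. No library was left out. The members and gene lists were chosen with earlier results of these data known.

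Genes were kept with filterByExpr (minimum count 10, minimum total 15), scaled by TMM (factors 1.04 and 0.856 in Esr2-KO, 1.08 and 1.04 in WT) and compared in R 4.3.3 by edgeR 4.0.16 (glmQLFit, glmQLFTest, two-sided) with Benjamini-Hochberg adjustment over all 17169 genes kept. Residual degrees of freedom were 2. The SE is the absolute log2 fold change over the square root of F. Alternatives were DESeq2 1.42.0, limma-voom (limma 3.58.1), other scaling factors, other filters on low counts and a replicate block. Further ones were removal of the pancreatic genes before the fit, scaling without the members, and each library left out. Strand, coordinates and segment sequences came from GENCODE M21, which held 398 of the 400 named rows, and locus spans from RefSeq GRCm38.p6. Transcripts were aligned with Biopython 1.88.

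Named genes were the members past the threshold, Igha and the plasma cell genes, the 8 kappa segments with the highest mean CPM and the 4 with the largest fold change, and of each list those past the threshold or else the 2 with the smallest p. Nearest relatives, untested members, segments leading a library and those called without 1 library were added after their values were seen. One gene that the rule names is not reported here.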

Additional observations from a re-analysis of the deposited data

How the results depend on the processing

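The count of 462 genes became 695 with library totals, 1916 without a low-count filter and 1682 with DESeq2, and 165 to 1804 with 1 library left out. Of the members 4 were lower and 0 higher, beside 239 lower and 223 higher of all 17169 genes tested. With library totals 7 members were lower, beside 487 of 17169 genes. Without a filter 23 were lower and 2 higher, beside 1004 and 912 of 25515 genes. The replicate block gave 9 lower and 1 higher, beside 278 and 212 of 17169 genes. DESeq2 called 1 member higher, beside 4.71% of all genes. With 1 library left out, 3 to 28 members were lower and 0 to 3 higher. The log2 ratio of group means ranged from -2.31 to -0.32 for the kappa sum (-1.0 with all libraries), from -2.58 to -0.51 for the plasma cell genes (-1.21) and from -1.87 to 0.18 for Igha (-0.52) with 1 library left out, and other scalings moved it by less than the spread between libraries. Igkv8-30 turned to -0.09 with limma-voom and -0.16 with the replicate block. With 1 library left out, ranges that crossed 0 were -1.50 to 0.06 for Tnfrsf17, -1.36 to 0.09 for Pou2af1, -4.72 to 0.53 for Igkv5-43, -2.16 to 1.48 for Igkv8-30, -3.21 to 3.99 for Igkv8-27, -14.21 to 1.72 for Igkv4-86 (the low end fitted against a lone Esr2-KO library at 0 counts, so that it measures no size), -4.97 to 0.11 for Igkv5-45 and -1.97 to 1.08 for Igkv6-13. The cause of these changes was not tested.

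Replicate numbers did not pair the libraries, as the deviations of same-numbered libraries from their group means had a correlation of -0.0641 over genes, and the labels name no shared batch. With the replicate number as a block 490 genes were called, 343 of them among the 462, and of the 4 lower segments Igkv5-48 and Igkv6-23 passed while Igkv4-57 and Igkv6-32 had edgeR adjusted p values of 0.0657 and 0.0570. Under the block Igkv5-43 (-2.06), Igkv4-86 (-5.04), Igkv8-28 (-4.42), Igkv4-74 (-5.06) and Igkv4-55 (-2.18) passed, and Car1 (-2.01) did not. With 2 libraries a group, low segments are limited by depth, since 3 counts correspond to 0.0826 to 0.114 CPM. Leaving out the most abundant member gave -0.92 for the kappa sum and -0.59 for the plasma cell genes, and no value for Igha, a single gene.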
